A study of Mus musculus with 2 samples.

Results

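Cells make DNA and RNA from purine and pyrimidine nucleotides, and 37 genes of that supply are described here: enzymes of purine synthesis (15 genes), pyrimidine synthesis (8 genes), the folate one-carbon cycle (5 genes) and the making of deoxynucleotides (9 genes). They were chosen by symbol from the 32285 genes of the deposited tables, with no use of their measured values, and each of the 37 symbols was found. The cells were mouse CD8+ T cells, lymphocytes that kill virus-infected and tumour cells, taken from lymph node per the labels. The series compares CD8+ T lymphocytes with and without electrical stimulation delivered through the matrix, by single-cell RNA sequencing, and the question it names is how the stimulus relates to the fate of the cells. There were 2 libraries, 1 labelled HC and 1 labelled NC. The labels give both libraries the same tissue and cell type, and they give no strain, age, sex, time or dose. They neither spell out the abbreviations nor say which library was stimulated, so the libraries are called by their labels.

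As background, a T cell that leaves rest makes new purines by building the ring step by step on activated ribose, makes pyrimidines as a ring that is joined to ribose late, and draws single carbons for both from serine through folate. Ribonucleotide reductase then turns ribonucleotides into deoxynucleotides, thymidylate synthase makes the thymidine nucleotide with folate carbon, and the phosphohydrolase SAMHD1 breaks deoxynucleotides down again. Dividing T cells are known for relying on these routes, and several drugs that slow lymphocyte division act on IMPDH, DHODH, thymidylate synthase or folate enzymes.

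Expression was counted in unique molecular identifiers (UMIs), each of which marks 1 captured RNA molecule, and is given as CPM, UMIs per 1000000 UMIs summed over cells. The HC library kept 13617 cells with 114430972 UMIs, and the NC library kept 13641 cells with 115789139 UMIs. A count of 0 would thus allow up to 0.0262 CPM in HC and 0.0259 CPM in NC. No library had a replicate (n = 1 per group), so the groups could not be tested against each other, and every interval below is an exact 95% interval for counting error only. A gene was measured at 5 CPM or more in either group of a comparison and was called higher at 1.5-fold or more, a rule of size and not a test.

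Cells were divided by the UMIs of Mki67 and Top2a, 2 genes that are expressed in cycling cells: dividing cells had 4 or more, resting cells had 0, and cells with 1 to 3 were kept as an intermediate class. HC held 7646 dividing cells (56.2%), 3060 intermediate cells (22.5%) and 2911 resting cells (21.4%), and NC held 5418 dividing cells (39.7%), 3978 intermediate cells (29.2%) and 4245 resting cells (31.1%). Dividing cells were also the deeper ones, with a median of 9514 UMIs in HC and 10873 UMIs in NC, whereas resting cells had 4922 UMIs in HC and 5659 UMIs in NC. The 5 CD8 T cell markers summed to 2759 CPM in HC and 3182 CPM in NC, while Cd4 and Foxp3 each stood below 0.03 CPM in both libraries. The 5 B cell markers summed to 16.5 CPM in HC and 35.4 CPM in NC, and the 5 myeloid markers to 4.28 CPM in HC and 7.44 CPM in NC, with Csf1r and C1qa at or near 0 in both. Most of these gaps lay in Igkc, at 1.99 CPM in HC and 20.8 CPM in NC, and in Lyz2, with 0 UMIs in HC and 416 UMIs in NC, where resting cells held 15.9 CPM. The part of such cells in the results was not tested. The libraries shared 49 barcodes among kept cells, 0.36% of each.

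The 3 members with the largest excess in dividing cells of HC, chosen after their values were seen, were the ribonucleotide reductase subunits Rrm2 and Rrm1 and thymidylate synthase, Tyms. Their upstream promoter sequence is shown because they carry the main contrast between dividing and resting cells. The sequences are from RefSeq (build GRCm38.p6), read 5′ to 3′ on the gene's strand, and capitals mark CCAAT and CACGTG on that strand. They lie at chr7:102441445-102441694 (plus strand) for Rrm1, at chr12:24708004-24708240 (plus strand) for Rrm2 and at chr5:30073626-30073875 (minus strand) for Tyms.
Rrm1: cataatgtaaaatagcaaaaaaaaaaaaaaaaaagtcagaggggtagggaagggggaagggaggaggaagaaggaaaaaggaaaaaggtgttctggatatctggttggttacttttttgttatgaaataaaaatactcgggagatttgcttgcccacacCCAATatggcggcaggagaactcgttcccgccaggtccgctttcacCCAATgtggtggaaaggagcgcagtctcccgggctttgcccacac
Rrm2: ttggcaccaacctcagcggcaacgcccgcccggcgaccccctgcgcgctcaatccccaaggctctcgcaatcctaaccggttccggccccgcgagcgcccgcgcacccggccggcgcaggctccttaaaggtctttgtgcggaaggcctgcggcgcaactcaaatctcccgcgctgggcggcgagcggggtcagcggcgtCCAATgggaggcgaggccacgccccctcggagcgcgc
Tyms: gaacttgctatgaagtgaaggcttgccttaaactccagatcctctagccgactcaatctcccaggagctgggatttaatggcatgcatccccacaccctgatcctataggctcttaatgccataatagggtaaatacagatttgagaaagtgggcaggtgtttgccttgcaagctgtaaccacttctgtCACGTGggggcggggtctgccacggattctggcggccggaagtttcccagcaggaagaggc

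Among the 35 members with a promoter in the RefSeq table, from 250 bases before the gene's start to 50 after it, CCAAT stood in 13 (37.1%) on either strand, against 41.1% of the 27025 genes with a window. The E-box CACGTG, the letters that MYC and MAX and other factors bind, stood in 6 members (17.1%), against 8.09% of genes: Atic, Paics and Impdh2 in the purine branch, Nme1 in the pyrimidine branch, and Tyms and Dtymk in the deoxynucleotide branch. An E2F-type motif (TTTCCCGC, TTTCGCGC, TTTGCCGC or TTTGGCGC, either strand) stood in 2 members (5.71%), Ppat and Prps2, against 2.61% of genes, and in 0 of the 9 deoxynucleotide members. None of these motifs contains another. A match is a description of the sequence only, and its absence says only that the letters are not in the window.

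Across all kept cells the total of the 37 members was nearly level, at 4351 CPM in HC and 4363 CPM in NC, and the members' median log2 ratio of HC over NC was -0.09, beside -0.03 for all 8704 genes measured. Adssl1, the muscle-type adenylosuccinate synthase, was the 1 member called higher in HC, where 1.93% of all genes were. Shmt1, the cytosolic serine hydroxymethyltransferase, and Ctps, a CTP synthase, were the 2 members called higher in NC, where 1.47% of all genes were. The ratios had a direction by branch: the median was -0.11 for purine, -0.29 for pyrimidine, -0.26 for folate and 0.14 for deoxynucleotide genes.

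**Figure D1:**
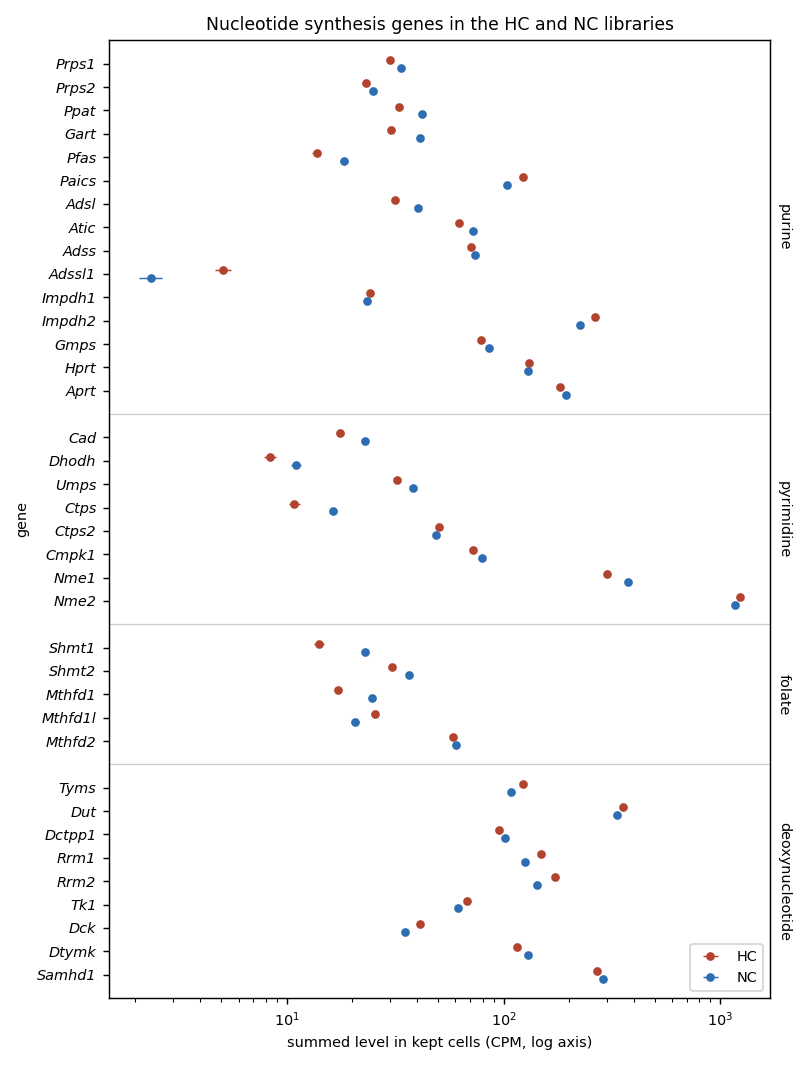
Level of each of the 37 members in CPM (log axis) in the HC and NC libraries, grouped by branch; bars are exact Poisson 95% intervals for counting error. Levels ran from 5.09 CPM (Adssl1) to 1226 CPM (Nme2) in HC, and Adssl1, Shmt1 and Ctps are the members whose libraries lie furthest apart.

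Levels are of captured 3′ tags, so they are not corrected for capture and the order between genes is one of tags only. By that order Nme2 and Nme1, nucleoside diphosphate kinases that pass phosphate between nucleotides, came first with Dut, the dUTPase that keeps uracil out of DNA. Nme2 stood at 1226 CPM in HC and 1169 CPM in NC. Nme1 stood at 299 CPM in HC and 376 CPM in NC, a log2 ratio of -0.33 (-0.35 to -0.31). The 2 genes are neighbours on chromosome 11 of GRCm38 with a gap of 719 bases and are close copies of each other, so how reads were split between them is uncertain.

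In the purine branch the ring-building steps were mostly lower in HC. Ppat, the amidotransferase that commits ribose phosphate to purines, stood at 32.8 CPM in HC and 42.0 CPM in NC, a log2 ratio of -0.36 (-0.42 to -0.30). Gart, which carries out several steps of ring building, stood at 30.4 CPM in HC and 41.0 CPM in NC (-0.43, -0.50 to -0.37). Pfas, Adsl and Atic, which act at other steps of the ring, had log2 ratios of -0.42, -0.35 and -0.23. These differences were all under 1.5-fold. The exception among ring-building members was Paics, a fused carboxylase and ligase of the middle steps, at 122 CPM in HC and 104 CPM in NC (0.23, 0.20 to 0.27).

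Ppat and Paics are head-to-head neighbours on chromosome 5 of GRCm38, at chr5:76913249-76951578 on the minus strand and chr5:76951307-76967509 on the plus strand, and their annotated ends overlap by 272 bases. Their differences between libraries had opposite signs. The E2F-type and CACGTG matches near those starts are shown because the pair shares this region, without the CCAAT that the Paics window also holds. Capitals mark the matches shown, GCGGGAAA being TTTCCCGC read on the other strand. They lie at chr5:76951771-76951800 and chr5:76951718-76951747 on the minus strand for Ppat and at chr5:76951087-76951116 on the plus strand for Paics.
Ppat, far site: gagcagaccgcGCGGGAAAaaagggcagtg
Ppat, near site: aggatcagaggGCGGGAAAgggaggtgcaa
Paics: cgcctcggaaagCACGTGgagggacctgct

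After the ring is closed, the route splits towards GMP and AMP. Impdh2, the main IMP dehydrogenase of dividing cells and the first step towards GMP, stood at 263 CPM in HC and 225 CPM in NC (0.23, 0.20 to 0.25). Its paralogue Impdh1 stood at 24.2 CPM in HC and 23.5 CPM in NC, a difference within counting error (0.04, -0.03 to 0.12). Gmps, which completes GMP, had a log2 ratio of -0.12. Towards AMP, Adss had -0.05, while its low paralogue Adssl1 stood at 5.09 CPM (4.68 to 5.52) in HC and 2.36 CPM (2.09 to 2.65) in NC, 2.16-fold higher in HC. Adssl1 passed the 5 CPM limit through HC alone, so its call had to be in that direction, and settings that put it under that limit made no call. The salvage enzyme Hprt, which rebuilds IMP and GMP from free bases, did not differ beyond counting error, at 131 CPM in HC and 130 CPM in NC. Aprt, the adenine salvage enzyme, and the ribose activators Prps1 and Prps2 had log2 ratios between -0.16 and -0.09.

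In the pyrimidine branch the members that build the ring were lower in HC. Cad, the multifunctional enzyme of the first steps, stood at 17.7 CPM in HC and 23.0 CPM in NC (-0.38, -0.46 to -0.29). Dhodh, the mitochondrial dehydrogenase, and Umps, which yields UMP, had log2 ratios of -0.40 and -0.24. Ctps, which makes CTP from UTP, stood at 10.8 CPM (10.2 to 11.5) in HC and 16.3 CPM (15.6 to 17.1) in NC, 1.51-fold higher in NC and just past the limit. Under 10 other settings its log2 ratio of HC over NC ran between -0.93 and -0.46 and was past 1.5-fold in 5. Its paralogue Ctps2 had a ratio of 0.05, at 50.5 CPM in HC and 48.6 CPM in NC, and Cmpk1, the UMP and CMP kinase, had -0.15.

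In the folate branch Shmt1 had the largest difference after Adssl1, at 14.1 CPM (13.4 to 14.8) in HC and 23.1 CPM (22.2 to 24.0) in NC, 1.64-fold higher in NC, and it was past 1.5-fold under all 10 other settings. Mthfd1, the cytosolic enzyme that interconverts folate one-carbon forms, was also lower in HC, at 17.3 CPM against 24.8 CPM in NC (-0.52, -0.61 to -0.44). The mitochondrial members did not share 1 direction. Shmt2, the mitochondrial serine hydroxymethyltransferase, had a log2 ratio of -0.26 and Mthfd2, a mitochondrial folate dehydrogenase, had -0.06. Mthfd1l, which releases formate from mitochondria, was higher in HC at 25.5 CPM, against 20.7 CPM in NC (0.30, 0.22 to 0.38).

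In the deoxynucleotide branch 6 of 9 members lay above 0. Rrm2 stood at 172 CPM in HC and 142 CPM in NC (0.28, 0.25 to 0.31), and Rrm1 at 149 CPM in HC and 125 CPM in NC (0.25, 0.22 to 0.28). Tyms, the cytosolic thymidine kinase Tk1, the deoxycytidine kinase Dck and Dut had log2 ratios of 0.19, 0.14, 0.23 and 0.08. The thymidylate kinase Dtymk, the dCTP pyrophosphatase Dctpp1 and Samhd1 had -0.16, -0.09 and -0.09. HC held the larger share of dividing cells, and with the 3 classes given the same cell shares in both libraries the branch median was -0.04.

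Dividing cells carried more of most members than resting cells, and the deoxynucleotide branch stood furthest apart. In HC, 20 of 37 members were called higher in dividing cells, where 16.2% of all genes were, and 1 was called higher in resting cells, where 6.70% were. In NC, 23 of 36 measured members were called higher in dividing cells, where 15.2% of all genes were, and 1 in resting cells, where 8.85% were. The branch medians of the log2 ratio were 1.57 in HC and 1.74 in NC for deoxynucleotide genes, 0.95 and 1.03 for folate genes, 0.51 and 0.52 for purine genes and 0.49 and 0.59 for pyrimidine genes, beside 0.06 and 0.02 for all genes. The class rests on a count of UMIs and so picks deeper cells. With each cell thinned to 2000 UMIs before it was classed (0 against 2 or more UMIs), 12 members in HC and 13 in NC were called higher in dividing cells, and the deoxynucleotide median was 1.12 in HC and 1.21 in NC. The 8 deoxynucleotide members other than Samhd1 were called in both libraries under that setting too. Outside that branch the calls were Adssl1, Ctps, Shmt1 and Mthfd1l in HC, and Pfas, Hprt, Cad, Mthfd1 and Mthfd1l in NC. Adssl1 was not called in HC with classes set at full depth. It stood there at 5.42 CPM in dividing and 4.01 CPM in resting cells, past the 5 CPM limit through dividing cells alone. Passing the limit in that way fixes the direction of a call. Cells classed as resting after thinning can hold a Mki67 or Top2a UMI at full depth.

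**Figure D2:**
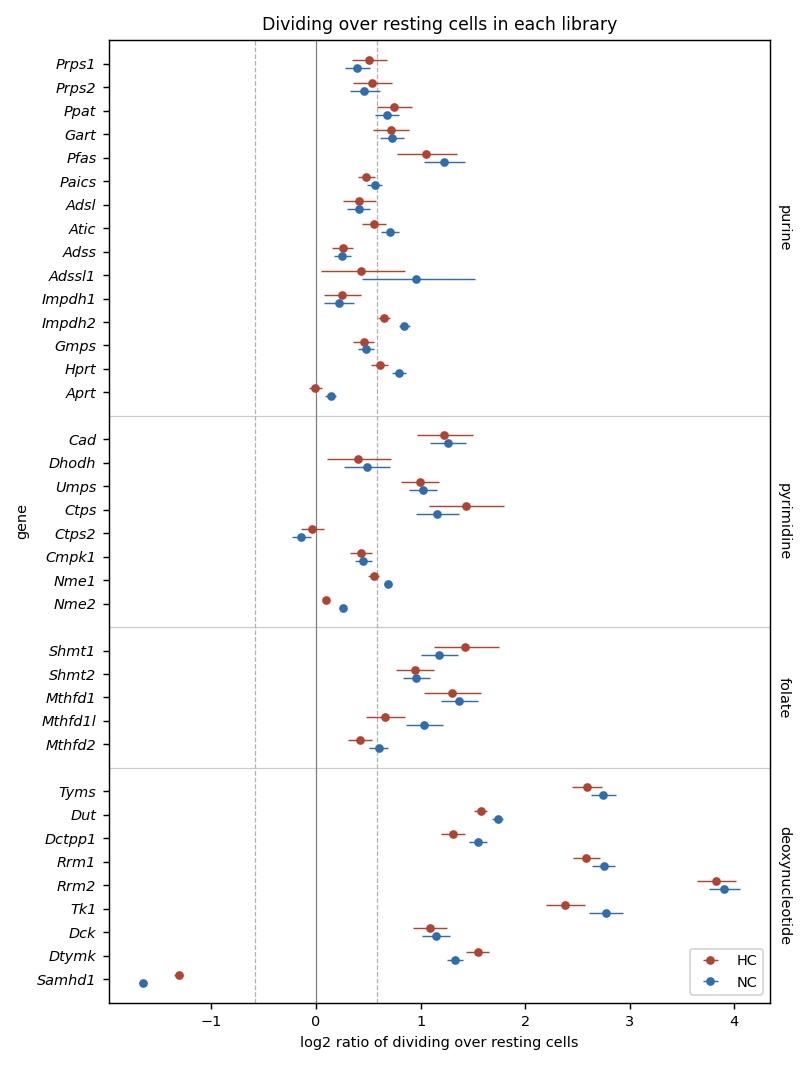
Log2 ratio of dividing over resting cells for each member in HC and NC, grouped by branch; bars are exact 95% intervals for counting error, and dashed lines mark 1.5-fold. Rrm2 lies highest at 3.83 in HC and 3.91 in NC, and Samhd1 alone lies past the line on the resting side, at -1.31 in HC and -1.65 in NC. Adssl1 is drawn for NC although it was under 5 CPM there.

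Rrm2, the small subunit whose level limits ribonucleotide reductase, stood at 232 CPM in dividing and 16.4 CPM in resting HC cells, and at 225 CPM in dividing and 15.0 CPM in resting NC cells. That was a 14.2-fold (12.5 to 16.1) excess in HC and a 15.0-fold (13.6 to 16.6) excess in NC. Rrm1, the large subunit that holds the active site, stood at 189 CPM in dividing and 31.5 CPM in resting HC cells, and at 188 CPM in dividing and 27.9 CPM in resting NC cells. In both libraries the large subunit thus had the higher level of the pair in resting cells and the small subunit in dividing cells, by captured tags.

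Thymidine supply followed the same order of classes. Tyms stood at 158 CPM in dividing and 26.2 CPM in resting HC cells, and at 161 CPM in dividing and 24.0 CPM in resting NC cells, which is 6.03-fold in HC and 6.70-fold in NC. Tk1, which salvages thymidine, had 86.0 CPM in dividing and 16.5 CPM in resting HC cells, and 91.0 CPM in dividing and 13.3 CPM in resting NC cells. The rest of the branch had smaller ratios: the log2 ratios in HC and NC were 1.57 and 1.74 for Dut, 1.54 and 1.33 for Dtymk, 1.31 and 1.55 for Dctpp1, and 1.09 and 1.15 for Dck. Tk1 had the second largest ratio of all members in NC. Of the promoters printed above, those of Rrm1 and Rrm2 hold CCAAT and that of Tyms holds CACGTG, so these 3 genes did not share a searched motif.

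Samhd1, which degrades deoxynucleotides, was the 1 member called higher in resting cells. It stood at 201 CPM in dividing and 499 CPM in resting HC cells, and at 167 CPM in dividing and 525 CPM in resting NC cells. That is 2.49-fold higher in resting cells in HC and 3.15-fold higher in NC. In resting cells Samhd1 was thus the most abundant member of its branch by captured tags.

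In the folate branch 4 of 5 members in HC and all 5 in NC were called higher in dividing cells. Shmt1 stood at 16.5 CPM in dividing and 6.12 CPM in resting HC cells, and at 28.1 CPM in dividing and 12.4 CPM in resting NC cells. Mthfd1 had log2 ratios of 1.30 in HC and 1.37 in NC, Shmt2 had 0.95 and 0.96, and Mthfd1l had 0.66 and 1.03. The member that was not called in HC was Mthfd2, at 0.42, which had 0.60 in NC. The cytosolic pair Shmt1 and Mthfd1 had the larger ratios in both libraries, but this order was not kept with classes from thinned cells. There Shmt1, Mthfd1 and Mthfd1l had 0.59, 0.15 and 0.60 in HC, and 0.36, 0.68 and 0.65 in NC.

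In the purine branch the members called higher in dividing cells of both libraries were Ppat, Gart and Pfas of ring building, Impdh2 of GMP synthesis and the salvage enzyme Hprt, with Atic added in NC. Pfas had the largest ratio of the branch among them, 1.05 in HC and 1.23 in NC. Impdh2 stood at 284 CPM in dividing and 181 CPM in resting HC cells, and at 262 CPM in dividing and 146 CPM in resting NC cells. Its paralogue Impdh1 differed less, with log2 ratios of 0.25 in HC and 0.22 in NC. Aprt was nearly level, at -0.01 in HC, within counting error, and 0.14 in NC.

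The pyrimidine branch was split between its paralogues. Cad, Umps and Ctps were called higher in dividing cells of both libraries, with log2 ratios of 1.23, 0.99 and 1.43 in HC and 1.26, 1.02 and 1.16 in NC. Ctps stood at 12.6 CPM in dividing and 4.67 CPM in resting HC cells, so that in HC it passed the 5 CPM limit through dividing cells alone, and at 19.9 CPM in dividing and 8.90 CPM in resting NC cells. Ctps2 stood at 50.8 CPM in dividing and 52.1 CPM in resting HC cells, and at 47.0 CPM in dividing and 51.7 CPM in resting NC cells. Of the CTP synthases, then, only Ctps was called between the classes, and the resting cells of both libraries held more tags of Ctps2 than of Ctps. Nme1 had log2 ratios of 0.55 in HC and 0.69 in NC and was called in NC, whereas Nme2 had 0.09 and 0.26.

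At equal depth, with each kept cell thinned to 2000 UMIs, a dividing cell carried on average 3.18 UMIs of the deoxynucleotide branch in HC and 3.22 UMIs in NC, and a resting cell 1.69 UMIs in HC and 1.78 UMIs in NC. For the purine branch a dividing cell carried 2.22 UMIs in HC and 2.37 UMIs in NC, and a resting cell 1.59 UMIs in HC and 1.63 UMIs in NC. For the folate branch a dividing cell carried 0.307 UMIs in HC and 0.361 UMIs in NC, and a resting cell 0.188 UMIs in HC and 0.202 UMIs in NC. For the pyrimidine branch a dividing cell carried 3.35 UMIs in HC and 3.62 UMIs in NC. A resting cell carried 2.89 UMIs of that branch in HC and 2.80 UMIs in NC. The classes were those set at full depth, where dividing cells were the deeper ones. Thinning left out 94 HC cells and 133 NC cells. Counts of this size do not resolve single members in single cells, so members are compared as sums over cells.

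Members were also followed along the count of Mki67 plus Top2a UMIs (0, 1 to 3, 4 to 9, 10 to 19, 20 or more). In HC, 10 of 15 purine, 5 of 8 pyrimidine and 4 of 5 folate members were highest at 4 to 9 UMIs, and 5 of 9 deoxynucleotide members at 10 to 19. In NC, 10 of 15 purine, 3 of 8 pyrimidine and 4 of 5 folate members were highest at 10 to 19 UMIs, and the deoxynucleotide members were highest at 10 to 19 (4 of 9) or at 20 or more (4 of 9). Depth moved with the bins: the median UMIs per cell in these 5 bins were 4922, 5767, 7724, 9006 and 11117 in HC, and 5659, 5804, 7105, 11749 and 13399 in NC. The part of depth in the order of bins was not tested.

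**Figure D3:**
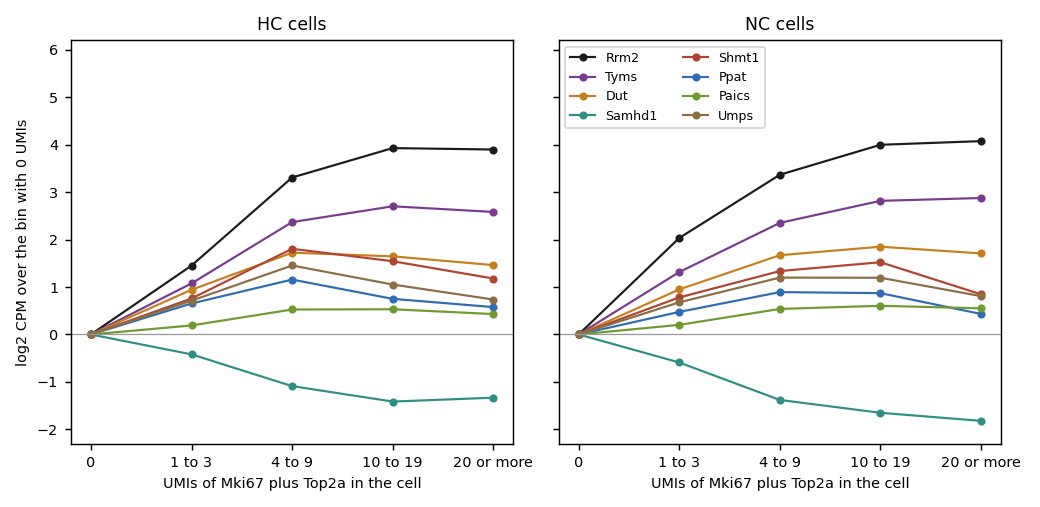
Log2 of the CPM in each bin of Mki67 plus Top2a UMIs over the CPM in the bin of 0, in HC and NC, for 8 members chosen after their values were seen (Rrm2, Tyms, Dut, Samhd1, Shmt1, Ppat, Paics and Umps); points are sums over the cells of a bin. Rrm2 lies highest in every bin after 0 and Samhd1 lies below 0 in each, while Ppat, Umps and Shmt1 are lower at 20 or more UMIs than at 4 to 9.

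Some members were lower again at the top of that count. Umps, with the steepest fall after 4 to 9 UMIs in HC, ran over 18.0, 29.4, 49.2, 37.3 and 29.9 CPM in HC, and 22.4, 35.9, 51.4, 51.3 and 39.3 CPM in NC. Ppat ran over 20.8, 32.8, 46.5, 35.1 and 31.1 CPM in HC, and 29.6, 41.1, 54.9, 54.1 and 39.9 CPM in NC. Both were thus highest in middle bins and lower again in cells with 20 or more UMIs. Gart, Pfas, Paics, Adsl, Atic and Dhodh, also of ring building, were likewise highest in a middle bin in both libraries. Cad was highest at 4 to 9 UMIs in HC. In NC, however, Cad had its highest level at 20 or more, with 25.5, 29.4 and 30.6 CPM in the 3 upper bins. Rrm1 did not turn down: it ran over 31.5, 73.0, 153, 181 and 207 CPM in HC, and 27.9, 66.7, 137, 175 and 221 CPM in NC. Samhd1 ran over 499, 373, 235, 187 and 198 CPM in HC, and 525, 349, 202, 167 and 149 CPM in NC, so most of its difference lay between 0 and 9 UMIs.

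Within each class the purine, pyrimidine and folate medians of HC over NC were also below 0. Among dividing cells the branch medians of HC over NC were -0.15 for purine, -0.39 for pyrimidine, -0.38 for folate and -0.03 for deoxynucleotide genes, beside -0.02 for all genes. Among resting cells they were -0.18, -0.30, -0.37 and 0.12 in the same order of branches, beside -0.08 for all genes. Among intermediate cells they were -0.13, -0.29, -0.27 and -0.12 in that order, beside -0.03 for all genes. Of 37 measured members in dividing cells, 1 was called higher in HC (Adssl1, where 1.86% of all genes were) and 3 higher in NC (Ctps, Shmt1 and Mthfd1, where 1.73% were). Adssl1 passed the 5 CPM limit in dividing cells through HC alone, which fixed the direction of its call. Of 36 measured members in resting cells, 0 were called higher in HC, where 2.09% of all genes were, and 2 higher in NC (Ctps and Shmt1, where 2.30% were). Ctps passed the 5 CPM limit there through NC alone, which fixed the direction of its call. Of 36 measured in intermediate cells, 0 were called higher in HC, where 2.17% of genes were, and 4 higher in NC (Dhodh, Ctps, Shmt1 and Mthfd1, where 2.43% were).

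**Figure D4:**
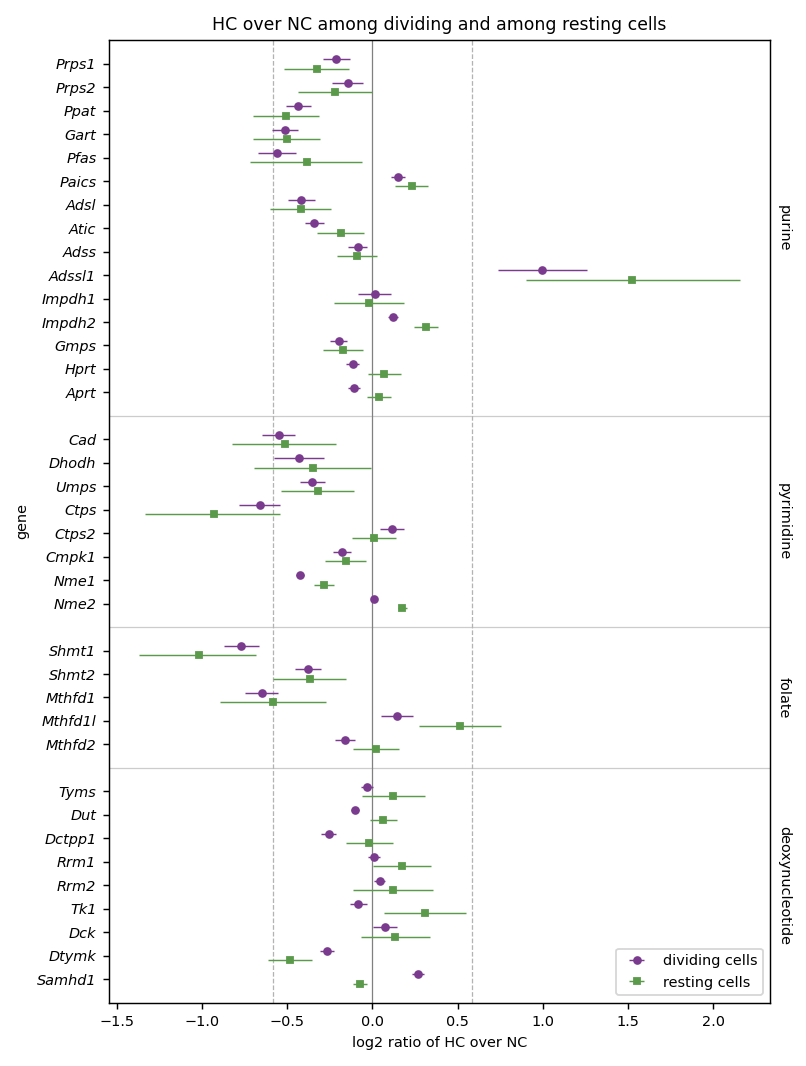
Log2 ratio of HC over NC for each member in dividing (circles) and resting (squares) cells, grouped by branch; bars are exact 95% intervals for counting error, and dashed lines mark 1.5-fold. Shmt1 (-0.77 in dividing, -1.02 in resting cells) and Ctps (-0.66 and -0.93) lie on the NC side in both classes, and Paics, Impdh2 and Mthfd1l lie on the HC side in both. Adssl1 is drawn for both although it was under 5 CPM in resting cells.

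Shmt1 was lower in HC in each class: it stood at 16.5 CPM in HC and 28.1 CPM in NC among dividing cells, 10.3 CPM in HC and 21.3 CPM in NC among intermediate cells, and 6.12 CPM in HC and 12.4 CPM in NC among resting cells. Ctps stood at 12.6 CPM in HC and 19.9 CPM in NC among dividing cells, and at 4.67 CPM in HC and 8.90 CPM in NC among resting cells. Ppat and Gart, under 1.5-fold, had log2 ratios of -0.43 and -0.51 in dividing and -0.50 and -0.50 in resting cells. These purine, pyrimidine and folate members were therefore lower in HC among cells of 1 class as well as over the whole library. Paics had 0.15 in dividing and 0.23 in resting cells, Impdh2 had 0.12 and 0.32, and Mthfd1l had 0.14 and 0.51.

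Among dividing cells the ribonucleotide reductase and thymidylate synthase genes were close between libraries: Rrm2 had a log2 ratio of HC over NC of 0.04 (0.01 to 0.07), Rrm1 had 0.01 (-0.03 to 0.04) and Tyms had -0.03 (-0.07 to 0.01). Among intermediate cells Rrm2 was lower in HC, at 44.8 CPM against 61.6 CPM in NC (-0.46, -0.58 to -0.34), while Rrm1 had 0.13 and Tyms had -0.12. Dtymk was lower in HC in each class, with -0.27 in dividing and -0.48 in resting cells. Tk1 and Samhd1 lay on opposite sides in the 2 classes: Tk1 had -0.08 (-0.13 to -0.03) in dividing and 0.31 (0.07 to 0.55) in resting cells, and Samhd1 had 0.27 (0.23 to 0.30) in dividing and -0.07 (-0.11 to -0.03) in resting cells. The difference between the classes was not tested.

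The resting class still held cells at different states of growth, and its members were laid out along other genes than the members. Resting cells were thinned to 2000 UMIs and divided by the UMIs of 15 ribosome-building genes (among them Ncl, Npm1, Fbl and Nop56), at most 4, 5 to 7, or more, with the same limits in both libraries. These low, middle and high groups held 37.2%, 37.9% and 24.9% of the resting cells of HC and 42.0%, 31.9% and 26.1% of those of NC. In the high group against the low group, 15 of 36 measured members in HC were called higher, where 11.6% of all genes were, and 25 of 36 in NC, where 17.5% were. The branch medians of the log2 ratio were 1.41 in HC and 1.86 in NC for folate, 0.58 and 1.24 for deoxynucleotide, 0.48 and 0.82 for purine and 0.47 and 0.96 for pyrimidine genes. By median the folate branch thus stood first along this axis, and the deoxynucleotide branch between dividing and resting cells. Some members rest on few UMIs in the low group, such as Ctps with 2 UMIs in HC and 7 UMIs in NC, and Adssl1 was not measured. Ctps and Shmt1 in both libraries and Mthfd1 in NC passed the 5 CPM limit through the high group alone. Of the members called higher, only Mthfd1l had an interval that includes 0, in both libraries. Its log2 ratio was 0.86 (-0.08 to 1.82) in HC and 0.79 (-0.02 to 1.60) in NC.

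Shmt1 stood at 11.2 CPM in the high and 4.21 CPM in the low group of resting HC cells, and at 34.2 CPM in the high and 2.27 CPM in the low group of resting NC cells. Umps stood at 28.0 CPM in the high and 8.89 CPM in the low group in HC, and at 46.5 CPM in the high and 9.92 CPM in the low group in NC. Ppat stood at 27.3 CPM in the high and 15.9 CPM in the low group in HC, and at 51.6 CPM in the high and 12.7 CPM in the low group in NC. These 3 members were thus higher in the high group of both libraries. Samhd1 went the other way, at 410 CPM in the high and 612 CPM in the low group in HC, and at 303 CPM in the high and 705 CPM in the low group in NC. It was the 1 member called higher in the low group of NC, where 14.7% of all genes were, and 0 members were in HC, where 10.6% were.

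**Figure D5:**
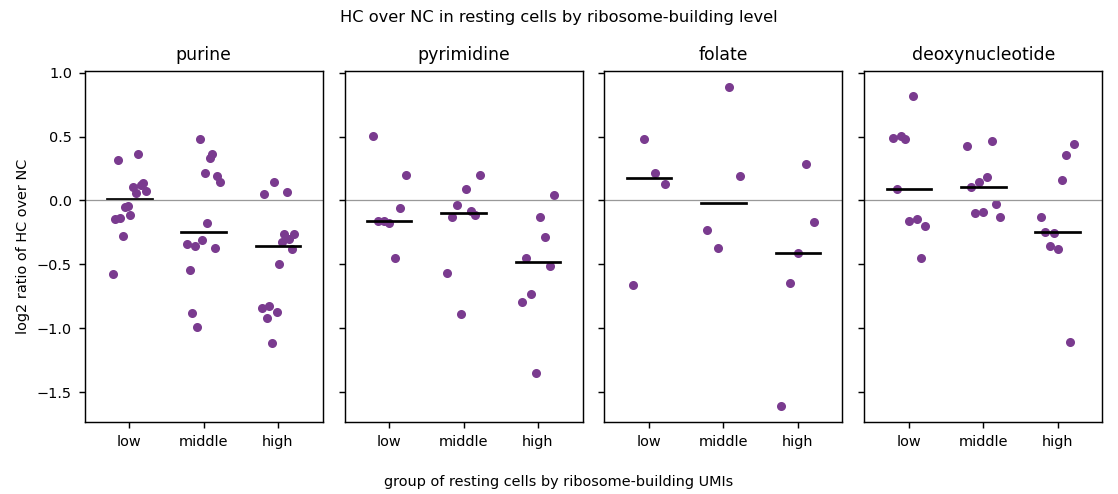
Log2 ratio of HC over NC of the members of each branch within the low, middle and high group of resting cells by ribosome-building UMIs; points are measured members and lines are branch medians. The median over all members was 0.01 in the low, -0.08 in the middle and -0.34 in the high group.

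Set against NC within each group, the members' median in HC was level in the low group and lower in the high group. The members' median ratio, on the log2 scale, was 0.01 in the low group (17 of 34 measured members below 0), -0.08 in the middle group (20 of 35) and -0.34 in the high group (28 of 36), where the medians over all genes were each -0.06. In the low group the branch medians were 0.01 for purine, -0.16 for pyrimidine, 0.17 for folate (4 measured members) and 0.09 for deoxynucleotide genes. In the high group the branch medians were -0.35 for purine, -0.48 for pyrimidine, -0.41 for folate and -0.25 for deoxynucleotide genes. Ppat had 27.3 CPM in HC and 51.6 CPM in NC there, a log2 ratio of -0.92 (-1.48 to -0.38), and Shmt1 had -1.61 (-2.49 to -0.82). Cells of the high group also differed in the ribosome-building genes themselves, which summed to 5169 CPM in HC and 6111 CPM in NC, against 1460 CPM in HC and 1414 CPM in NC in the low group. The part of that difference in the members' ratios was not tested.

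Resting cells were also put in bins by the UMIs of Mcm2 to Mcm7, the helicase genes that license DNA for replication: 0, 1 to 2, or 3 or more. Cells with 3 or more were few, 129 in HC and 195 in NC. Against cells with 0, they had 25 of 36 measured members called higher in HC, where 24.8% of all genes were, and 26 of 36 in NC, where 23.2% were. Called lower in them were 2 members in HC (Impdh1 and Samhd1, where 24.3% of all genes were) and 1 in NC (Samhd1, where 22.4% were). Impdh1 rests on 2 UMIs in that bin of HC (-1.39, -4.46 to 0.51) and was called higher in it in NC (1.27). Ppat, Pfas, Dhodh, Ctps, Shmt1 and Mthfd1l, called higher in HC, rest on 3 to 9 UMIs there, with intervals that include 0. Among the members called higher in NC, the intervals of Dhodh and Dck include 0. Ctps and Shmt1 passed the 5 CPM limit in HC through that bin alone, which fixed the direction of their calls. The deoxynucleotide median was 1.63 in HC and 1.74 in NC, the largest of the branches, and the purine median was the smallest at 0.91 in HC and 0.85 in NC. Rrm2 stood at 65.9 CPM in licensing cells and 9.25 CPM in cells with 0 in HC, and at 41.0 CPM and 10.6 CPM in the same bins of NC. Dut stood at 403 CPM in licensing cells and 86.9 CPM in cells with 0 in HC, and at 377 CPM and 86.6 CPM in the same bins of NC. Set against NC within these bins, the members' median log2 ratio of HC over NC was -0.18 at 0 UMIs (23 of 36 below 0), -0.21 at 1 to 2 (24 of 36) and 0.01 at 3 or more (17 of 36), so the high bin of licensing genes did not show the lower HC median seen in the high ribosome-building group. Some cells without a Mki67 or Top2a UMI thus carried replication and deoxynucleotide genes together.

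Lists of neighbouring pathways were read in the same way, beside the 1.93% of all genes called higher in HC and the 1.47% called higher in NC. Of 9 measured genes of folate uptake and one-carbon exchange, 0 were called higher in HC and 2 higher in NC, and the list's median log2 ratio was -0.40. The 2 were Slc19a1, the reduced folate carrier, at 11.7 CPM in HC and 18.5 CPM in NC, and Gcsh, a glycine cleavage protein, at 14.6 CPM in HC and 23.9 CPM in NC. Of 7 methionine cycle genes 1 was called, Mtap, which recovers methionine and adenine, at 17.7 CPM in HC and 26.7 CPM in NC. Of 8 other deoxynucleotide genes 1 was called, the dCMP deaminase Dctd, at 4.57 CPM in HC and 7.44 CPM in NC, which passed the 5 CPM limit through NC alone. No gene was called among 13 of purine salvage and breakdown, 8 of pyrimidine salvage and breakdown, 5 of serine synthesis and uptake and 7 of the pentose phosphate pathway, with medians of -0.03, -0.02, -0.11 and 0.09. The transketolase Tkt of that last list stood at 275 CPM in HC and 227 CPM in NC (0.28). These counts are over all kept cells, and calls within classes differed. Among resting cells Mat2a of the methionine list was called higher in NC, at 57.7 CPM in HC and 98.3 CPM in NC. Ahcy of that list was called higher in HC there, at 11.4 CPM in HC and 6.68 CPM in NC. In resting cells 2.30% of all genes were called higher in NC and 2.09% higher in HC.

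Between dividing and resting cells, where 16.2% of all genes in HC and 15.2% in NC were called higher in dividing cells, 2 of 5 genes of the serine list were called so in both libraries: Phgdh, the first enzyme of serine synthesis, with log2 ratios of 0.97 in HC and 1.09 in NC, and Psat1, the aminotransferase after it, with 0.94 and 1.16. Of the folate list 0 of 8 measured genes in HC and 1 of 9 in NC were called higher in dividing cells. These lists, like those read between the libraries, are too short for such counts to be set against the shares of all genes. The gene called in NC was Fpgs, which passed the 5 CPM limit there through dividing cells alone (7.28 CPM in dividing, 4.55 CPM in resting cells). Fpgs was under that limit in HC (4.94 CPM in dividing, 2.76 CPM in resting cells). In HC 1 gene of the folate list was called higher in resting cells, and in NC 0 were. That gene was Mthfd2l, at 5.85 CPM in resting HC cells. It passed the 5 CPM limit through resting cells alone, which fixed the direction of its call. In the purine salvage list Ak6, an adenylate kinase, was called higher in dividing cells of both libraries, and Xdh, the xanthine dehydrogenase of purine breakdown, in resting cells of both, at -0.62 in HC and -0.64 in NC. The mitochondrial thymidine kinase Tk2 stood on the resting side, at 7.26 CPM in dividing and 9.34 CPM in resting HC cells, and was called in NC, at 6.38 CPM in dividing and 11.8 CPM in resting cells.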

How the data were processed

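The authors deposited UMI counts per gene and cell barcode for each library, not normalized, from 3′ v3.1 libraries of the Chromium system per the labels' protocols. The tables name Cell Ranger 6.1.2 per the file headers. Seurat 3.2.3, mm10 and an older Cell Ranger (5.0.0) are listed in the submitters' processing notes without a role. Kept cells had at least 500 genes, at least 1000 UMIs and at most 10% mitochondrial UMIs, which left 87.9% of HC and 92.2% of NC barcodes. Doublets may remain, as no doublet caller was run. Sums of counts over cells were divided by their total to give CPM. CPM carry exact Poisson intervals and log2 ratios exact conditional binomial intervals, with no pseudocount. UMIs correct for PCR copies, and the intervals cover counting error only.

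The 37 members were taken by symbol; the gene lists, classes and thresholds were chosen with earlier results of these data known. Named pathway genes were those called between libraries and up to 3 per list with the largest ratios. Alternatives used TMM factors from edgeR 4.0.16 and size factors from DESeq2 1.42.0 (scaling only), equal cell weights, thinning, other cell filters, folds, floors and class rules. Summing and ratio steps were tested on simulated data. Promoter windows came from RefSeq (35 of 37 members, not Dhodh and Pfas) and gene positions from GENCODE M21, both on GRCm38. Work used Python 3.11.15, numpy 2.4.6, scipy 1.17.1, pandas 2.3.3 and R 4.3.3.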

Additional observations from a re-analysis of the deposited data

Results flagged for a closer look

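Tk1 and Samhd1 were picked out because their HC and NC levels stood in opposite order in dividing and in resting cells, with intervals that excluded 0 in each. The log2 ratio of HC over NC was -0.082 for Tk1 among dividing cells (86.0 CPM in HC, 91.0 CPM in NC), against 0.31 among resting cells (16.5 CPM in HC, 13.3 CPM in NC). For Samhd1 it was 0.27 among dividing cells (201 CPM in HC, 167 CPM in NC), against -0.07 among resting cells (499 CPM in HC, 525 CPM in NC). With 1 library per group the difference between classes was not tested, and each ratio is under 1.5-fold.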

How the results depend on the processing

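No paired analysis was possible because each group has 1 library and no result comes from a test. No result changed direction except the single members counted at the end and the deoxynucleotide median of HC over NC. That median was -0.032 in dividing cells alone, -0.12 in intermediate cells alone and -0.041 with equal class shares, against 0.14 over all cells. The cause was not tested. The count of members higher in NC was 1 with TMM factors, equal cell weights, the stricter cell filter, no cells over 3 times the median UMIs or a floor of 20 CPM, 10 at the lower fold tried and 0 at 2-fold. The count higher in HC was 0 with equal cell weights, thinned cells, a floor of 20 CPM or resting cells alone, where Adssl1 was not measured. The count higher in dividing HC cells was 31 at the lower fold, 13 at 2-fold and 12 with classes from thinned cells, and in NC 15 at 2-fold and 13 with thinned classes.

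Branch medians of HC over NC were for folate -0.18 (thinned), -0.37 (resting alone), -0.38 (dividing alone) and -0.36 (equal class shares), for purine -0.18 (resting alone) and -0.17 (equal shares), for pyrimidine -0.19 (floor of 20 CPM), -0.39 (dividing alone) and -0.36 (equal shares), and for deoxynucleotide 0.20 (stricter filter). Medians of dividing over resting with classes from thinned cells were 0.25 (purine), 0.30 (pyrimidine), 0.46 (folate) and 1.12 (deoxynucleotide) in HC, and 0.27, 0.32, 0.52 and 1.21 in NC. The deoxynucleotide median was 1.74 (equal weights), 1.76 (thinned) and 1.48 (class from 6 mitotic genes) in HC, and 1.82 (thinned), 1.67 (dividing from 2 UMIs) and 1.67 (6 mitotic genes) in NC. The folate median in HC was 0.66 at a floor of 20 CPM. Of 37 members, 28 kept their sign of HC over NC under 10 alternatives, and 34 in HC and 36 in NC kept that of dividing over resting under 11. Depth limits single members in the groups and licensing bins of resting cells.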
